A study of Danio rerio with 2 samples.

Results

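From 32057 genes counted in cells sorted from the zebrafish heart, 6 that mature and crosslink collagen are described here, namely the lysyl oxidases *loxl1* (ENSDARG00000054451), *loxl2a* (ENSDARG00000044010), *loxl2b* (ENSDARG00000044074) and *loxl3b* (ENSDARG00000039563), the procollagen proteinase enhancer *pcolcea* (ENSDARG00000056913) and the collagen chaperone *serpinh1b* (ENSDARG00000019949). They were looked up by symbol, and all 6 were found. The genes had been chosen by earlier results of these same data, in which *loxl1* was among the leading genes of ventricular-like endocardium and *pcolcea* among those of valve interstitial-like cells. Their levels in these cells are therefore given as a description, and no support is drawn from them.

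Hearts were dissected by hand from *Tg(kdrl:nls-mCherry); Tg(cd41:GFP)* embryos at 48 and 72 hours post fertilization (hpf). The *kdrl* promoter drives nuclear mCherry in endothelial cells, endocardial cells (EdCs) included, and *cd41*:GFP marks blood progenitors and thrombocytes. At each age, live cells positive for mCherry alone and cells positive for both reporters were sorted and mixed, and a single library was made from them. The number of hearts pooled is not given in the sources used here. The 48 hpf library held 2665 cells with a median of 10411 unique molecular identifiers (UMIs, one per captured transcript), and the 72 hpf library held 4125 cells with a median of 6316. With 1 library per age, no comparison has replicates and no test was run. Each 95% interval covers counting alone, and age cannot be told apart from library. The cells were clustered without the 6 genes and without any other gene listed below for collagen or elastin maturation, and clusters were named "-like" from marker genes.

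Fibrillar collagen is made as a procollagen in the endoplasmic reticulum, where prolyl and lysyl hydroxylases modify its chains and Hsp47, the product of *serpinh1b*, binds the folded triple helix and accompanies it towards secretion. Outside the cell, proteinases of the Bmp1 family cut off the carboxy-terminal propeptide, helped by the enhancer that *pcolcea* encodes. Lysyl oxidases are copper-dependent enzymes that then oxidize lysines of collagen and elastin, which lets neighbouring molecules crosslink. In the heart this matrix stiffens the valve leaflets, whose interstitial cells are its main source, while the endocardium rests on a basement membrane.

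The classes carried the markers expected of their names, although these also shaped the clusters. At 72 hpf, the 342 valve interstitial-like cells held *angptl7* at 3403, *postnb* at 445 and *twist1b* at 390 UMIs per 1000000 pooled UMIs (CPM, the unit of every level below). The 1004 ventricular endocardial-like cells held *tmem88b* at 2801 and *vcam1b* at 213 CPM, and the 117 lymphatic endothelial-like cells held *lyve1b* at 950.5 and *flt4* at 92.9 CPM. Valve endocardial-like cells numbered 452 and held *alcama* at 738 and *rspo2* at 596 CPM. Only 2 valve interstitial-like and 4 ventricular endocardial-like cells lay in the 48 hpf library, so neither class, as clustered here, was followed between the ages. With cells classed one by one from the same markers, 6 and 1391 cells of that library fell in these classes. The largest 48 hpf cluster, cluster 0 with 1088 cells, was led by *mcm5*, *mcm2*, *mcm6* and *hells* and stayed unnamed. Its ventricular endocardial markers summed to 9888 CPM and its S phase markers to 2866 CPM. The ventricular endocardial markers summed to 19750 CPM in the ventricular endocardial-like class at 72 hpf. Clusters 4, 6 and 10, led by *aqp8a.1*, *cdh4* and *cxcr4a*, were unnamed as well.

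The lysyl oxidase gene *loxl1* is known from mice for its part in maintaining elastic fibres. At 72 hpf, it was highest in lymphatic endothelial-like cells and next highest in ventricular endocardial-like cells, and near the bottom of its range in the endocardium of the valve. Its level was 271 CPM (95% interval 234 to 313, 187 UMIs) in the lymphatic endothelial-like cells and 100.5 CPM (92.3 to 109, 562 UMIs) in the ventricular endocardial-like cells. In S phase-like cells, which were led by *hells*, *cdca7a*, *mcm5* and *mcm6*, it was 53.1 CPM. Lower levels followed in cluster 4 (33.0 CPM), G2/M-like cells (26.1 CPM) and valve interstitial-like cells (20.6 CPM), whose neighbouring intervals overlapped. Cluster 6 followed at 6.75 CPM, and valve endocardial-like cells at 3.06 CPM did not stand apart from the hematopoietic-like cells at 2.16 CPM. The ventricular endocardial markers were also high in some of these groups, summing to 17188 CPM in S phase-like cells, 13641 in cluster 4 and 11421 in G2/M-like cells. Their sum was 8164 CPM in lymphatic endothelial-like and 2622 CPM in valve interstitial-like cells. The *loxl1* level in ventricular endocardial-like cells was 32.8-fold that in valve endocardial-like cells (17.7 to 68.8), a description of a gene picked for its ventricular level.

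A UMI of *loxl1* was found in 50.4% of lymphatic endothelial-like cells (41.0 to 59.8) and in 32.6% of ventricular endocardial-like cells (29.7 to 35.6), against 11.4% of valve interstitial-like and 1.33% of valve endocardial-like cells. The 365 hematopoietic-like cells showed it in 2.19% at a median depth of 18801 UMIs, and whether they express the gene themselves is not known. The ventricular and lymphatic endothelial-like cells had medians of 5128.5 and 5448. Thinned to 2000 UMIs per cell, the shares were 29.1% in lymphatic, 16.0% in ventricular, 2.63% in valve interstitial-like and 0.548% in hematopoietic-like cells. The transcripts were unevenly spread over the lymphatic endothelial-like cells, where 5 cells held 34.2% of the UMIs and 1 cell held 19. In ventricular endocardial-like cells no cell had more than 6.

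Within the lymphatic endothelial-like class at 72 hpf, *loxl1* followed *lyve1b*, one of the markers used to name the class, in a split chosen after the values were seen. The 84 cells with a UMI of *lyve1b* held 348 CPM (298 to 404), and the 33 cells without one held 72.7 CPM (39.7 to 122). At 48 hpf all 41 *loxl1* UMIs of the class lay in its 156 cells with *lyve1b*, at 23.4 CPM (16.8 to 31.7), and none in the other 38.

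**Figure D1:**
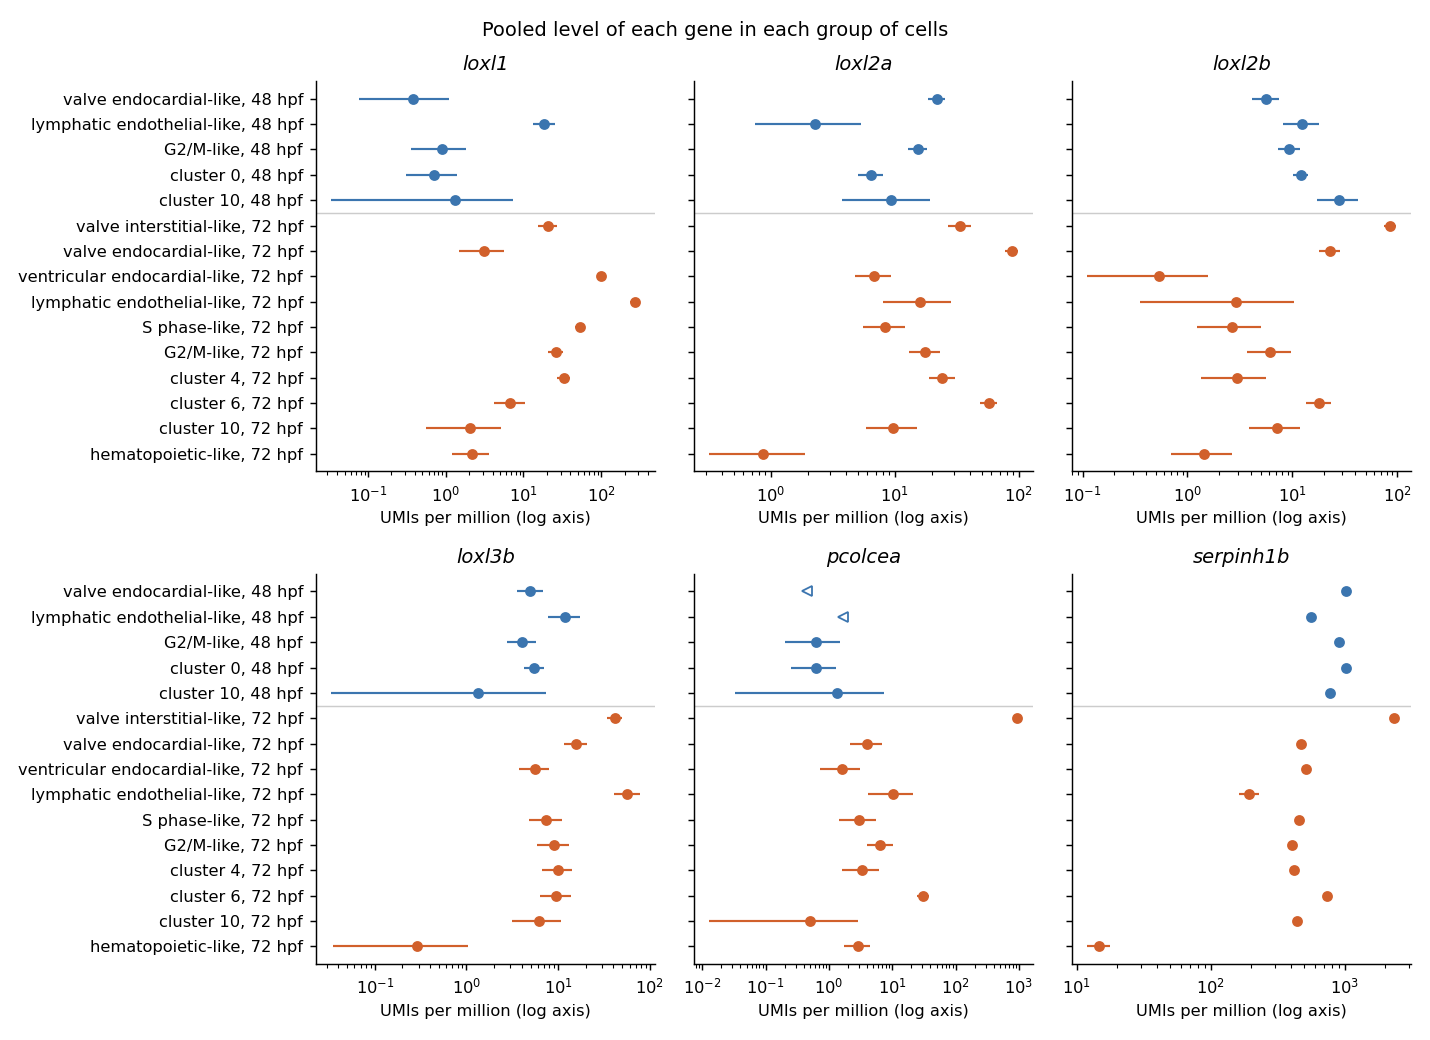
Pooled level of each gene in CPM (log axis, a separate scale for each gene) in every group of at least 50 cells, at 48 hpf (blue) and 72 hpf (orange). Bars are 95% counting intervals and open triangles mark the upper limit where no UMI was counted; *loxl1* peaks at 271 CPM in lymphatic endothelial-like cells, *loxl2a* at 87.3 in valve endocardial-like cells, and *loxl2b*, *pcolcea* and *serpinh1b* in valve interstitial-like cells.

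Among lysyl oxidases, *loxl2a* marked the endocardium of the valve rather than its interstitium. It stood at 87.3 CPM (77.4 to 98.0) in valve endocardial-like cells at 72 hpf, where 38.3% of cells had a UMI. Cluster 6, whose leading genes were *cdh4*, *gstm.3*, *esr1* and *zfpm2b*, followed at 57.1 CPM, and valve interstitial-like cells came next at 33.3 CPM (26.7 to 41.0). Valve endocardial-like cells held 2.62-fold more (2.06 to 3.37) than valve interstitial-like cells and 12.8-fold more (9.14 to 18.5) than ventricular endocardial-like cells, which were at 6.79 CPM. In hematopoietic-like cells the level was 0.865 CPM. LOXL2 is known in mammals for crosslinking type IV collagen of basement membranes as well as fibrillar collagen.

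Its paralog *loxl2b* had the opposite place in the valve. In valve interstitial-like cells it reached 85.3 CPM (74.6 to 97.1), with a UMI in 140 of 342 cells (40.9%), and in valve endocardial-like cells it was at 22.7 CPM, 3.76-fold lower (2.88 to 4.96). It was almost missing from ventricular endocardial-like cells, with 3 UMIs in 1004 cells, or 0.536 CPM, which puts valve interstitial-like cells 159-fold higher with a wide interval of 53.7 to 777. The share of cells with a UMI in the ventricular class, 0.299%, was below that of the deeper hematopoietic-like cells, 4 of 365. In S phase-like cells and cluster 4, at 2.67 and 2.97 CPM, intervals reached down to those of the hematopoietic-like cells at 1.44 CPM.

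Read as a balance, *loxl2a* made up 79.4% (74.8 to 83.5) of the 359 UMIs of the pair in valve endocardial-like cells at 72 hpf and 28.1% (23.2 to 33.4) of the 317 in valve interstitial-like cells. In valve endocardial-like cells of the 48 hpf library the share was 79.5% (73.6 to 84.7), so it was much the same at both ages although both genes were about 4 times as high at the later one. At 48 hpf it was 34.8% in cluster 0 and 15.6% in lymphatic endothelial-like cells, whereas at 72 hpf it was 92.7% in ventricular and 84.6% in lymphatic endothelial-like cells, the last from 13 UMIs. How reads shared by the paralogs were assigned is not given in the sources used here. The comparison is of the balance between groups, not of the level of one gene against the other.

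**Figure D2:**
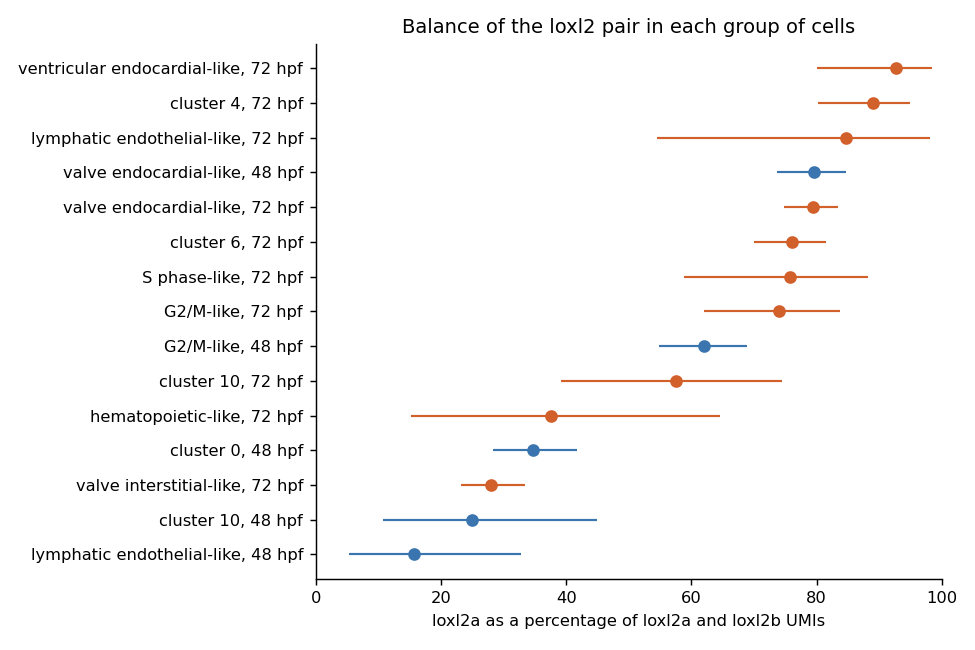
*loxl2a* as a percentage of the UMIs of *loxl2a* and *loxl2b* together, in each group of at least 50 cells at 48 hpf (blue) and 72 hpf (orange), with exact 95% intervals. Valve endocardial-like cells sit at 79.5% and 79.4% at the earlier and later age, and valve interstitial-like cells at 28.1%.

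The highest levels of *loxl3b* were in lymphatic endothelial-like cells, at 56.6 CPM (40.2 to 77.4), and valve interstitial-like cells, at 41.1 CPM (33.8 to 49.6), and these intervals overlap. All other groups were lower, beginning with valve endocardial-like cells at 15.6 CPM (11.6 to 20.5). Ventricular endocardial-like cells stood at 5.54 CPM, so that valve interstitial-like cells were 7.42-fold higher (4.94 to 11.4) and lymphatic endothelial-like cells 10.2-fold higher (6.21 to 16.9). A UMI was found in 28.2% of lymphatic endothelial-like and 23.4% of valve interstitial-like cells, against 0.548% of hematopoietic-like cells. In mice the gene's ortholog is needed for the palate and the axial skeleton.

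Almost all transcripts of *pcolcea* lay in a single class. Valve interstitial-like cells held 2464 of the 2644 UMIs of the 72 hpf library, at 922 CPM (886 to 959), and 91.5% of them had a UMI, or 73.7% when thinned. The next group was cluster 6 at 30.7 CPM (24.7 to 37.7), where 5 of its 416 cells held 44.0% of the UMIs. Every other group at 72 hpf was at 10.2 CPM or less, and several of these low levels came from few cells. In valve endocardial-like cells 1 cell held 10 of the 13 UMIs, and in hematopoietic-like cells 1 cell held 12 of 20. Valve interstitial-like cells exceeded ventricular endocardial-like cells, at 1.61 CPM, by 573-fold (301 to 1254).

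The chaperone gene *serpinh1b* was found in every class but differed in amount. Valve interstitial-like cells had 2348 CPM (2290.2 to 2407) with a UMI in 97.7% of cells, and cluster 6 had 742 CPM (711 to 773). Ventricular endocardial-like cells at 515 CPM and valve endocardial-like cells at 472 CPM differed by 1.09-fold (1.02 to 1.16). Lymphatic endothelial-like cells were lowest among the endothelial groups at 194 CPM (163 to 230), 2.65-fold below the ventricular class. Hematopoietic-like cells stood at 14.7 CPM, and 5 cells carried 51.0% of those UMIs.

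Placed side by side at 72 hpf, *loxl1* was 4.88-fold higher (3.70 to 6.57) in ventricular endocardial-like than in valve interstitial-like cells, and the other 5 genes were higher in the latter. The folds were 4.90 for *loxl2a*, 159 for *loxl2b*, 7.42 for *loxl3b*, 573 for *pcolcea* and 4.56 for *serpinh1b*. Of the 12536 genes with at least 10 UMIs in these classes together, 22.0% were at least 2-fold higher in valve interstitial-like cells and 10.8% at least 2-fold lower. The split of 5 genes higher and 1 lower is how the genes were chosen, so nothing is read from it. Against ventricular endocardial-like cells, lymphatic endothelial-like cells were at least 2-fold higher in 4 of the 5 genes with enough UMIs, *loxl1*, *loxl2a*, *loxl3b* and *pcolcea*, and lower in *serpinh1b*. Among 11309 genes compared, 19.6% were higher and 10.8% lower by that much. The *loxl2a* value, 2.35-fold on 11 against 38 UMIs, had an interval of 1.08 to 4.69 that reached below 2-fold. The *pcolcea* value rests on 7 UMIs in 2 cells, and only 1 of the 7 was in a cell with *lyve1b*.

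**Figure D3:**
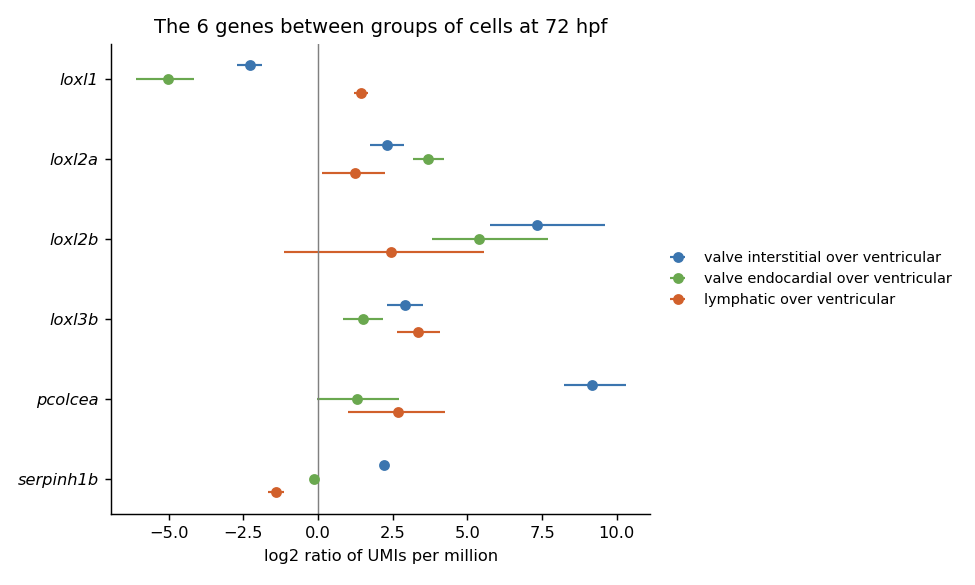
Log2 ratio of CPM for each gene at 72 hpf, for valve interstitial-like (blue), valve endocardial-like (green) and lymphatic endothelial-like cells (orange) over ventricular endocardial-like cells, with 95% counting intervals. *loxl1* lies at -2.29, -5.04 and 1.43 and *serpinh1b* at 2.19, -0.12 and -1.41.

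Genes of other cell types differed between these classes as well. The 8 cardiomyocyte genes summed to 407 CPM in valve interstitial-like and 165 in ventricular endocardial-like cells, and *myl7*, a cardiac myosin light chain gene, was at 254 and 64.7 CPM. The 7 smooth muscle and mural genes summed to 298 and 17.3 CPM, and the 7 epicardial and fibroblast genes to 345 and 64.9 CPM, with the epicardial gene *tcf21* at 4.86 and 0 CPM. In valve endocardial-like cells the cardiomyocyte, smooth muscle and epicardial sums were 794, 83.0 and 372 CPM. Some listed genes also mark the valve here, namely *tnnt2a*, a leading gene of a valve endocardial-like cluster, and *aldh1a2*, one of the valve endocardial markers. The valve interstitial gene *postnb* was at 0 CPM in the ventricular class. The part of these cells in the results was not tested, beyond the splits that follow. A UMI of *myl7* was found in 201 of the 342 valve interstitial-like cells. Without the cells that held one, which left 141 valve interstitial-like and 996 ventricular endocardial-like cells, the fold was 3.74 for *loxl1* towards the ventricular class and 449 for *pcolcea* and 4.47 for *serpinh1b* towards the valve interstitial-like class. For *loxl2a*, *loxl2b* and *loxl3b* these folds were 4.77, 139 and 5.84.

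The 12 valve interstitial-like cells with a UMI of the smooth muscle actin gene *acta2*, a split chosen after the values were seen, held 12 of the 55 *loxl1* UMIs of the class. The *loxl1* level was 113 CPM (58.5 to 198) in them and 16.7 CPM (12.1 to 22.6) in the other 330 cells. For *pcolcea* the corresponding levels were 745 and 929 CPM, and for *serpinh1b* 1754 and 2372 CPM. Leaving these cells out, *loxl1* was 5.97-fold higher in the ventricular class. Among the valve interstitial-like cells, 59 had no UMI of the endothelial genes, and their *loxl1* level was 41.1 CPM (24.0 to 65.9), against 16.8 CPM (11.9 to 23.1) in the 283 with one. They also held more *pcolcea*, at 1275 against 857 CPM, and more *serpinh1b*, at 2614 against 2299 CPM. The *kdrl* level, whose promoter drives the sorted reporter, was 28.4 CPM in the valve interstitial-like and 352 CPM in the ventricular endocardial-like class.

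Single cells with several of the genes were mostly valve interstitial-like. The choice of genes favours this, since 5 of the 6 were chosen as higher in that class than in the ventricular one. Nothing is therefore read from the counts that follow. A UMI of at least 4 of the 6 genes was found in 82 of these 342 cells (24.0%), in 11 of 416 cells of cluster 6 (2.64%), in 5 of 452 valve endocardial-like cells (1.11%), in 1 of 1004 ventricular endocardial-like cells and in 1 of 117 lymphatic endothelial-like cells. The median valve interstitial-like cell held 3 of the genes, and 1 cell held all 6. After thinning, 18.7% of them held 3 or more, against 5 of the 416 cells of cluster 6, 1.11% of valve endocardial-like and 0.199% of ventricular endocardial-like cells. Cells of the class without a *pcolcea* UMI, 29 in number, also had less *serpinh1b*, with 1301 CPM against 2449 in the 313 cells with one, whereas *loxl2b* was at 102 and 83.6 CPM.

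By age, *loxl1* and *pcolcea* were scarce at 48 hpf, *loxl2a* and *loxl3b* were moderately higher at 72 hpf, *loxl2b* differed in direction between groups of cells, and *serpinh1b* was lower at 72 hpf. In all cells together, *loxl1* went from 61 UMIs (1.98 CPM) to 1209 (35.9 CPM), an 18.1-fold difference (14.0 to 23.8). Ventricular endocardial-like cells, which held 562 of the later UMIs, numbered 1004 at 72 hpf and 4 at 48 hpf. Over all cells, age can therefore not be told apart from the classes that each library held. Of the 61 early UMIs, 41 lay in the 194 lymphatic endothelial-like cells, at 18.6 CPM (13.4 to 25.3), and every other group of at least 50 cells was at 1.32 CPM or below. Lymphatic endothelial-like cells were 14.6-fold higher (10.3 to 21.0) at 72 hpf, and 14.9-fold (10.6 to 21.5) among those with *lyve1b*. G2/M-like cells were 29.4-fold higher (13.6 to 75.7), and valve endocardial-like cells, with only 3 and 10 UMIs, 8.21-fold higher (2.11 to 46.4). Different clusters held most of each class at the earlier and the later age, namely clusters 12 and 13 for lymphatic endothelial-like, 2 and 5 for valve endocardial-like and 3 and 11 for G2/M-like cells, although cluster 3 also held 39 of the 279 G2/M-like cells at 72 hpf.

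For *pcolcea*, 23 UMIs in 15 cells (0.748 CPM) were counted at 48 hpf and 2644 UMIs in 400 cells (78.4 CPM) at 72 hpf, which is 105-fold more (69.7 to 166). Valve interstitial-like cells, which held 2464 of the later UMIs, numbered 342 at 72 hpf and 2 at 48 hpf. The difference with age can therefore not be told apart from the classes that each library held. The 2 valve interstitial-like cells of the earlier library held 10 of the 23 UMIs, and the other 13 cells had 1 UMI each. None was counted in the 776 valve endocardial-like or 194 lymphatic endothelial-like cells at 48 hpf, which allows up to 0.387% and 1.55% of cells with a UMI (3 cells of each total) and sets no limit on cells with the transcript below detection. With that absence set to 3 UMIs per group, the later level was 10.7-fold higher in valve endocardial-like and 7.46-fold higher in lymphatic endothelial-like cells. The counting intervals, with the 0 UMIs kept, began lower, at 7.51-fold and 4.61-fold, and had no upper end. The first ratio rests on 13 UMIs, 10 of them in 1 cell, and the second on 7 UMIs, 6 of them in 1 cell. Each therefore depends largely on a single cell.

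The level of *loxl2a* went from 21.8 to 87.3 CPM in valve endocardial-like cells, 4.01-fold (3.31 to 4.87), and from 2.27 to 16.0 CPM in lymphatic endothelial-like cells, 7.03-fold (2.25 to 25.8). In G2/M-like cells it was 15.3 and 17.5 CPM, a ratio of 1.14 (0.807 to 1.60). Over all cells it was 1.83-fold higher (1.62 to 2.08). Likewise, *loxl3b* was higher in valve endocardial-like (3.14-fold, 2.04 to 4.88), lymphatic endothelial-like (4.79-fold, 2.85 to 8.20) and G2/M-like cells (2.20-fold, 1.26 to 3.81), and 2.02-fold over all cells.

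Over all cells *loxl2b* was 1.26-fold higher at 72 hpf (1.08 to 1.46), or 0.33 in log2 beside 0.31 for the median gene. Underneath, *loxl2b* differed both ways. It went from 5.59 to 22.7 CPM in valve endocardial-like cells, 4.05-fold (2.76 to 6.01). It was lower at 72 hpf in 2 groups, going from 12.3 to 2.90 CPM in lymphatic endothelial-like cells, on 27 and 2 UMIs, and from 27.8 to 7.12 CPM in cluster 10, led by *cxcr4a*, *cfd*, *zgc:153311* and *rgs5a*. In G2/M-like cells it was 9.36 and 6.17 CPM, and the interval of that ratio included no change. Cluster 0 at 48 hpf held 12.0 CPM, against 0.536 CPM in the ventricular endocardial-like class at 72 hpf. These are different clusters of different ages, and their values are only set side by side.

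Expression of *serpinh1b* was lower at 72 hpf in every class that could be compared. The level went from 1029.9 to 472 CPM in valve endocardial-like cells, 2.18-fold (2.07 to 2.30), from 903 to 405 CPM in G2/M-like cells, 2.23-fold (2.09 to 2.37), and from 560.3 to 194 CPM in lymphatic endothelial-like cells, 2.88-fold (2.41 to 3.47). Cluster 10 was 1.79-fold lower. Cells at 48 hpf ranged from 560.3 to 1029.9 CPM between groups, and at 72 hpf the endothelial groups other than cluster 6 lay between 194 and 515 CPM. Over all cells it was 1.77-fold lower (1.74 to 1.80), with 365 hematopoietic-like cells at 72 hpf against 11 at 48 hpf. Without these cells it was 1.43-fold lower (1.40 to 1.46).

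At a 2-fold threshold over all cells, *loxl1*, *loxl3b* and *pcolcea* were higher at 72 hpf and none of the 6 genes was lower, while 24.7% of 18077 genes were higher and 7.69% lower. In valve endocardial-like cells, all 5 genes but *serpinh1b* were at least 2-fold higher and *serpinh1b* was lower, where 18.0% of 12654 genes were higher and 8.60% lower. The *loxl1* value there rests on 10 UMIs against 3, and that of *pcolcea* on 13 against 0, with 10 of the 13 in 1 cell. The median gene was 0.31 higher on the log2 scale at 72 hpf over all cells and 0.17 higher in valve endocardial-like cells.

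**Figure D4:**
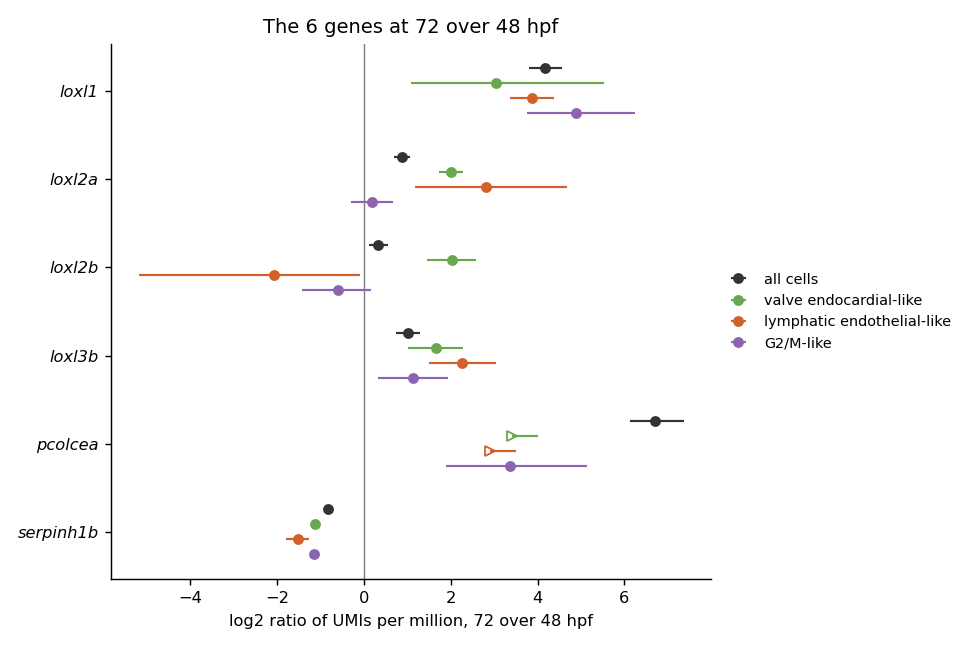
Log2 ratio of CPM at 72 over 48 hpf for each gene in all cells (black), valve endocardial-like (green), lymphatic endothelial-like (orange) and G2/M-like cells (purple), with 95% counting intervals. Open triangles are ratios with 0 UMIs at 48 hpf set to 3 UMIs, drawn without the lower part of their interval. *serpinh1b* lies below 0 in all 4, and *loxl2b* is at 2.02 in valve endocardial-like and -2.08 in lymphatic endothelial-like cells.

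Other genes of collagen maturation were listed by role. Those named are mostly among the most abundant of a role or more than 4-fold apart between valve interstitial-like and ventricular endocardial-like cells at 72 hpf. Not every such gene is named. Of the 9 lysyl oxidases found, 6 had enough UMIs. The 4 at least 2-fold higher in valve interstitial-like cells included *loxa*, a crosslinking enzyme of the canonical type, at 197 against 1.43 CPM, 138-fold (69.4 to 321). Over all cells *loxa* went from 0.0976 CPM (3 UMIs) at 48 hpf to 21.8 CPM at 72 hpf, and at the later age it was also at 76.2 CPM in cluster 10. Valve interstitial-like cells, which held 527 *loxa* UMIs at 72 hpf, numbered 342 there and 2 at 48 hpf. A difference with age can therefore not be told apart from the classes that each library held. The other 3 were *loxl2a*, *loxl2b* and *loxl3b*, which, like the lower *loxl1*, belong to the 6 genes chosen for these levels, and *loxl4* was at 2.62 and 2.15 CPM.

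Enzymes and helpers of the endoplasmic reticulum were mostly higher in valve interstitial-like cells. This held for 8 of 10 prolyl hydroxylases and partners with 0 lower, among them the prolyl isomerase gene *ppib* (949.7 against 428 CPM), the disulfide isomerase gene *p4hb* (244 against 96.9 CPM) and *p3h2* (34.8 against 2.50 CPM). It also held for 9 of 13 chaperone and export genes with 0 lower, such as *fkbp9* (180 against 63.7 CPM), *fkbp10b* (86.4 against 11.8 CPM) and *creb3l1* (15.3 against 0.179 CPM), which encodes a transcription factor of secretory genes. The 9 include *serpinh1b*, which was itself chosen for these levels. The abundant *fkbp7* (281 against 164 CPM) and *crtap* (122 against 82.1 CPM) were not past 2-fold. Lysyl hydroxylases were closer between the classes, with 1 of 4, *plod1a*, past 2-fold, and *plod3* was at 110.3 and 60.4 CPM.

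Of the procollagen proteinases and enhancers, 5 of 9 were higher and 2 lower. The 5 include *pcolcea*, which was itself chosen for these levels. The proteinase gene *bmp1a* was at 62.1 against 18.1 CPM, and *tll1* of the same family was the reverse at 0.748 against 19.8 CPM. The amino-propeptidase gene *adamts2* was also lower in valve interstitial-like cells, at 0.748 against 20.2 CPM. In lymphatic endothelial-like cells *tll1* was at 52.2 CPM.

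All 8 fibrillar collagen genes with enough UMIs were at least 2-fold higher in valve interstitial-like cells, by a median of 4.35 on the log2 scale beside 0.27 for all genes. Levels were 2838 against 285 CPM for *col1a2* and 1438 against 68.8 CPM for *col5a1*. Elastic fibre genes were higher in 8 of 10, with *fbln5* at 193 against 0.894 CPM and *mfap2* at 475 against 14.5 CPM. The 1 lower gene was *efemp2b*, which encodes a fibulin that binds lysyl oxidase in mammals, with 4 UMIs against 64 (11.4 CPM). Its highest level was in cluster 10, at 538 CPM, and lymphatic endothelial-like cells held 98.7 CPM. The remaining gene, *ltbp1*, was at 3.37 against 4.83 CPM. Basement membrane collagens split evenly, with *col4a1* (79.7 against 508 CPM) and *col4a2* (59.1 against 344 CPM) lower and *col4a5* and *col4a6* higher. Counts past 2-fold are to be read beside the 22.0% higher and 10.8% lower of all genes.

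**Figure D5:**
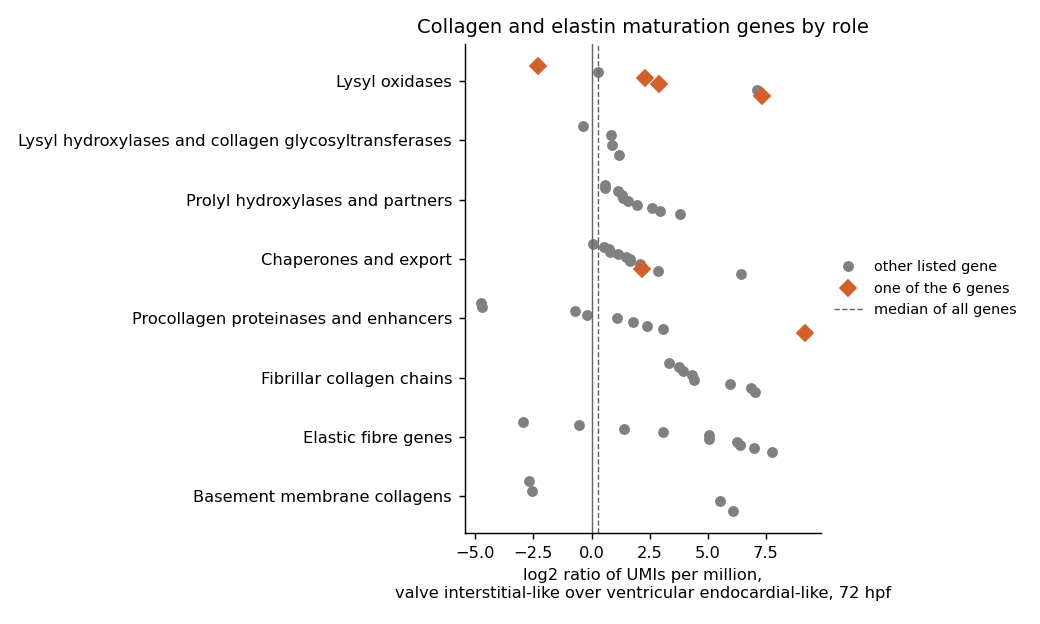
Log2 ratio of CPM in valve interstitial-like over ventricular endocardial-like cells at 72 hpf for the listed genes with enough UMIs, by role, with the 6 genes as orange diamonds. The dashed line is the median of all genes, 0.27; the 8 fibrillar collagen genes all lie to the right of it.

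In valve endocardial-like cells, lower *serpinh1b* at 72 hpf stood beside higher fibrillar collagen. The level of *col1a2* was 922 against 355 CPM at 48 hpf (2.60-fold, 2.47 to 2.74), and 4 of the 6 fibrillar collagen genes counted were at least 2-fold higher with 0 lower. Of 12 chaperone and export genes, 4 were lower, *serpinh1b*, *fkbp9*, *fkbp10b* and *fkbp14*, and 1, *mia2*, was higher. These counts stand beside 18.0% of all genes higher and 8.60% lower in this comparison. The prolyl 3-hydroxylase gene *p3h2* was 7.45-fold lower, and *bmp1a* was 2.99-fold higher (2.15 to 4.16).

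The genes whose levels followed each of the 6 most closely were ranked by Pearson's r of log2(CPM + 1) over 15 groups of cells, among 7161 genes. These groups come from 2 libraries and share their depth and age, so the values are a description. Of the genes below, *dapk1* and *rspo1* were also among the markers used to name clusters, so their r is not independent of the groups. The closest to *loxl1* were *hic1* (r = 0.91), *stx3a* (0.89) and *rnf7* (0.88). For *loxl2a* they were *sorbs3*, *dapk1* and *sh3glb1b* (0.91 to 0.94), for *loxl2b* *atf4a*, *msx3* and *her4.2* (0.84 each), and for *loxl3b* *lifrb*, *zfp36l1a* and *ppme1* (0.90 to 0.95). The genes nearest *pcolcea* were *erbb3a*, *adamts17* and *rspo1* (0.95 to 0.96). For *serpinh1b* they were *fkbp9* (0.97) and *plod3* (0.97), a chaperone and a lysyl hydroxylase of the same pathway, and *fndc3ba* (0.96). In hematopoietic-like cells *serpinh1b*, *fkbp9* and *plod3* were at 14.7, 1.44 and 7.06 CPM. Next lowest were lymphatic endothelial-like cells at 72 hpf, at 194, 27.6 and 34.8 CPM. *erbb3a*, *adamts17* and *rspo1* were at 56.9, 31.8 and 94.6 CPM in valve interstitial-like cells and at most 6.42 CPM elsewhere. How far a single group sets each r was not tested. Between members the closest pair was *loxl2b* and *serpinh1b* (0.61), and the lowest value was that of *loxl1* and *loxl2b* (-0.37). The size of the differences does not enter r. Over these groups *rnf7* lay between 72.9 and 120 CPM, whereas *loxl1* ran from 0.373 to 271 CPM.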

How the data were processed

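Sorted heart cells were profiled by droplet 3′ sequencing, 1 library at 48 hpf and 1 at 72 hpf. The files deposited by the authors held whole-number UMI counts of every gene in every cell and no normalized values. Their processing notes name STARsolo, Scanpy and danRer11, and versions, annotation and cell filters are not given in the sources used here. The number of 72 hpf barcodes equals that given by the study and that of 48 hpf differs slightly. All 6790 cells were kept, and 4 barcodes occurred in both libraries.

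The 6 genes and all lists were chosen with earlier results of these data known. After scaling each cell to 10000 UMIs and taking logs, 2000 variable genes, without the 6 genes and the role lists, gave 30 principal components, a graph of 15 neighbours and Leiden clusters at resolution 0.6 (scanpy 1.11.5, leidenalg 0.10.2). Names needed 3 markers at a log2 ratio of 1.5 among 50 leading genes, by thresholds set on these data, and rebuilt names can differ from the study's. Clusters 4, 6, 10 and the other unnamed ones were compared by number.

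Levels are pooled UMIs per 1000000 (CPM) with exact Poisson intervals, shares have exact Clopper-Pearson intervals, and ratios have exact conditional intervals (scipy 1.17.1), all at 95%. A class with 0 UMIs was set to 3 UMIs. Groups had at least 50 cells, and folds over all genes needed 10 UMIs. Named genes come from the 6, the top 3 of each role by level and those past 4-fold between the classes. The 3 most alike and the 4 leading cluster genes are also named. Not every top or 4-fold gene is given, and *ltbp1* is given as the remaining elastic fibre gene. *loxl4*, *fkbp14*, *mia2* and the splits by *acta2*, *myl7* and *lyve1b* were picked after their values were seen. Scrublet marked 7 and 2 cells (0.263% and 0.0485%), too few for its calls to be relied on, so doublets were left in, and an alternative left out the 5% of cells with the highest scores. Ratio intervals were tested on simulated independent Poisson counts, the model they assume, so UMIs clumped in single cells were not covered. Alternatives changed the clustering, the scaling, the cells included and the filters. Sequence features were not analysed here.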

Additional observations from a re-analysis of the deposited data

Results flagged for a closer look

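One gene of the 6 changed in opposite directions with age in different groups of cells, with counting intervals on opposite sides of no change. The log2 ratio of *loxl2b* at 72 over 48 hpf was 2.02 (1.46 to 2.59) in valve endocardial-like cells, -2.08 (-5.20 to -0.09) in lymphatic endothelial-like cells and -1.96 (-3.05 to -0.92) in cluster 10. The lymphatic value rests on 2 UMIs at 72 hpf, neither in a cell with *lyve1b*. With 1 library per age, the difference between these groups was not tested.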

How the results depend on the processing

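With 1 library per age, no alternative has replicates. No paired analysis was possible because there was 1 library per age. The cause of each shift below was not tested, and depth limits every value with few UMIs. Between ventricular endocardial-like and valve interstitial-like cells at 72 hpf, all 6 genes kept their direction under every alternative run. The log2 ratio of *loxl1*, ventricular over valve interstitial-like, was 2.29, and 1.74 at resolution 0.3, 2.93 at resolution 1.0, 2.74 with fewer variable genes and 1.87 with cells classed one by one. For the other genes, valve interstitial-like over ventricular, classing cells one by one gave 0.89 for *loxl2a*, 4.44 for *loxl2b*, 2.14 for *loxl3b* and 7.32 for *pcolcea*. Resolution 0.3 gave 1.57 for *loxl2a*, 5.53 for *loxl2b* and 2.29 for *serpinh1b*. Clustering 72 hpf alone gave 8.10 for *pcolcea*, and median of ratios scaling 1.92 for *serpinh1b*. Leaving out cells with *myl7*, chosen after seeing the data, kept every direction.

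Ratios by age within a class, like the balance of the *loxl2* pair, were taken from the main clustering alone. The valve endocardial-like class at 48 hpf held 776 cells there. In the other clusterings of both libraries it held from 6 (resolution 0.3) to 717 cells (4000 variable genes). By age, the log2 ratios at 72 over 48 hpf in valve endocardial-like cells alone were 3.04 for *loxl1*, 2.00 for *loxl2a*, 2.02 for *loxl2b*, 1.65 for *loxl3b* and -1.12 for *serpinh1b*. For *pcolcea*, whose 0 UMIs at 48 hpf were set to 3, the ratio was 3.42, and the counting interval with the 0 UMIs kept began at 2.91. In G2/M-like cells alone the ratios were 4.88 for *loxl1*, 0.19 for *loxl2a*, 3.36 for *pcolcea* and -1.15 for *serpinh1b*, and *loxl2b* turned from 0.33 to -0.60. Outside the hematopoietic-like clusters they were 1.18 for *loxl2a*, 0.61 for *loxl2b*, 1.32 for *loxl3b* and -0.52 for *serpinh1b*. In endothelial cells classed without clusters they were 4.85 for *loxl1*, 1.22 for *loxl2a*, 1.38 for *loxl3b* and -0.70 for *serpinh1b*. Median of ratios scaling gave 0.63 for *loxl2a*, 0.0852 for *loxl2b* and -1.07 for *serpinh1b*, and a mean over cells 1.07 for *loxl2a* and -0.67 for *serpinh1b*. Restricting lymphatic endothelial-like cells to those with *lyve1b* was also chosen after seeing the data.

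Shares of cells with a UMI depended on depth. At 2000 UMIs, 4000 UMIs and with at least 2 UMIs required, *loxl1* in ventricular endocardial-like cells was at 16.0%, 28.5% and 13.3%. In valve interstitial-like cells *loxl2a* was at 7.31%, 11.3% and 4.09%, *loxl2b* at 12.9%, 26.8% and 14.9%, *loxl3b* at 6.43%, 15.5% and 6.43%, and *pcolcea* at 73.7%, 83.3% and 84.8%. *serpinh1b* was at 91.2% at 2000 UMIs and 94.7% with at least 2 UMIs. The other 82 values moved by less than the counting interval or, for counts, by less than 1.5 times.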
